A study of Mus musculus with 32 samples.

Results

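Sfmbt2, Insyn2b, Zfhx2os, Baiap3 and Tdo2 are 5 genes that stood among the large rises of R6/2 striatum over wild-type (WT) striatum in mice given vehicle. They were selected on the difference of their log2 values between the R6/2 vehicle and WT vehicle arrays, so that difference is given below as a description. They were 5 of the 18193 genes measured, and the array read them with 8 probe sets, taken as every probe set that the platform's table assigns to that gene symbol alone. Sfmbt2 had probe sets 1434353_at and 1443176_at, Insyn2b had 1442379_at, Zfhx2os had 1446215_at, Baiap3 had 1427509_at, and Tdo2 had 1419093_at, 1449337_at and 1455770_at. The probe set with the highest mean over all 32 arrays, R6/2 arrays included, represented each gene. It is 1434353_at for Sfmbt2 and 1419093_at for Tdo2.

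The R6/2 mouse is a model of Huntington's disease that carries a transgene with exon 1 of the human huntingtin gene and an expanded CAG repeat under the human huntingtin promoter, in addition to its own huntingtin genes. All mice were males of a mixed CBA X C57Bl/6 background, aged 12 weeks, and the tissue was dissected striatum. HSP990 (NVP-HSP990), a small molecule that blocks the chaperone HSP90, was given by gavage at 12 mg/kg for 4 h, and control mice received the vehicle alone. There were 7 WT vehicle, 7 R6/2 vehicle, 10 WT HSP990 and 8 R6/2 HSP990 arrays. The labels number the arrays within each group and name no animals, so p-values here measure only the spread between these arrays. The means compared between the genotypes on HSP990 hold none of the vehicle arrays that chose the genes, but its errors and p-values rest on a spread per gene that all 4 groups share.

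Striatum is built mainly of medium spiny neurons, which lose expression of their receptors and signalling proteins early in Huntington's disease models. Sfmbt2 encodes a Polycomb-group protein with MBT domains, which bind methylated lysines on histones, and is known for imprinted expression in extraembryonic tissue. Insyn2b encodes a relative of INSYN2A, a protein of the inhibitory postsynapse, where the scaffold gephyrin holds GABA and glycine receptors. Zfhx2os is an RNA named as the opposite-strand partner of Zfhx2, a zinc finger homeobox transcription factor gene. Baiap3 encodes a MUNC13-family protein with C2 domains that acts in the trafficking of dense-core vesicles, which carry neuropeptides. Tdo2 encodes tryptophan 2,3-dioxygenase, which opens the kynurenine pathway of tryptophan breakdown, is abundant in liver, and in brain is known from granule cells of the dentate gyrus.

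The bases upstream of the RefSeq start sites were read for members with an entry in the RefSeq promoter table (build GRCm38.p6), which matched 3 of the 5 genes. They are shown so that the start sites of genes with such unlike patterns can be set side by side, and they hold the 250 bases before each start, 5′ to 3′ on the gene's strand. Capitals mark matches on either strand, none of which overlap. The motifs searched were the GC box, as GGGCGG, the CCAAT box, by the letters of its name, and the TATA box, whose letters follow the sequences.
Sfmbt2, start 1, chr2:10370201-10370450, plus strand: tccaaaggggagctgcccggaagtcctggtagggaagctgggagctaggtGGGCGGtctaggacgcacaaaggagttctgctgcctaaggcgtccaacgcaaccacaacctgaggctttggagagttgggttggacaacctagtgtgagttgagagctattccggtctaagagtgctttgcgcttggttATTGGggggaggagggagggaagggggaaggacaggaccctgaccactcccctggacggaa
Sfmbt2, start 2, chr2:10372186-10372435, plus strand: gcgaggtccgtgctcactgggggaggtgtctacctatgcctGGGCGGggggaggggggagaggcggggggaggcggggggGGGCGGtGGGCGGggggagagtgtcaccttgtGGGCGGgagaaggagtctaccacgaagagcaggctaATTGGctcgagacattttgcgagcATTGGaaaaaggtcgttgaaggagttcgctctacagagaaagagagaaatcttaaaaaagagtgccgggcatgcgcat
Baiap3, chr17:25256365-25256614, minus strand: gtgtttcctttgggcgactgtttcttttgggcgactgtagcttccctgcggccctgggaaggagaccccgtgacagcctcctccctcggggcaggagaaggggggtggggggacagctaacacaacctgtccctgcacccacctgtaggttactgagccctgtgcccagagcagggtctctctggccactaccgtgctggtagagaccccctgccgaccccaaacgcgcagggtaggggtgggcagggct
Tdo2, chr3:81975729-81975978, minus strand: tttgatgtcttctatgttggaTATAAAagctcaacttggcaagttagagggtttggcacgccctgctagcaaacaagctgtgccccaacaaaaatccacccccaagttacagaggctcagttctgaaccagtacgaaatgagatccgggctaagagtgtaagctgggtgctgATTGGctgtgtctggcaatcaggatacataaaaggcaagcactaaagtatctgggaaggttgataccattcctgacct
The window of Sfmbt2 start 2 held 4 GC boxes, 2 CCAAT boxes and 15 CpG dinucleotides, against a median of 6 CpG over the 32851 windows of this length in the table. The window of Sfmbt2 start 1 held 1 GC box, 1 CCAAT box and 8 CpG. That of Tdo2 held 1 CCAAT box, 3 CpG and 1 match to the TATA box letters, which lay near the end farthest from the start. That of Baiap3 held 9 CpG and no match to these boxes. Of all windows, 32.7% held a GC box, 33.8% a CCAAT box and 12.4% the TATA box letters TATAAA. A paired heat shock element (GAANNTTC, in 6.69% of all windows, or TTCNNGAA, in 7.17%) was in none of the 4 windows. A match or its lack describes these letters in these windows only.

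Array medians lay between 5.73 and 5.78 on the log2 scale of the deposited values. WT vehicle arrays were bright for medium spiny neuron markers (Penk, the enkephalin precursor, at 13.3 ± 0.16 SD, and Ppp1r1b, which encodes DARPP-32, at 12.1 ± 0.21 SD, n = 7). R6/2 vehicle replicate 7 stood apart. A genotype position was computed for each array from the genes called between the genotypes on the other treatment, without the 5 members, and set to 0 at the WT mean and 1 at the R6/2 mean. Replicate 7 lay at 0.415, while the other 6 R6/2 vehicle arrays lay between 0.83 and 1.26. Its mean over 9 genes known from dentate granule cells was 8.88, against 5.75 to 6.63 in the other 31 arrays, and 8 of those 9 genes had their highest value in it, such as Dsp (desmoplakin) at 9.53 and Prox1 at 8.47. In 8 other arrays a list of 22 hepatocyte genes (albumin, fibrinogen and urea cycle genes among them) had a mean of 6.31 to 8.44, against 4.17 to 5.38 in the remaining 24. These 8 were R6/2 vehicle replicates 2, 3 and 6, WT HSP990 replicate 4, and R6/2 HSP990 replicates 1, 3, 6 and 8. For 20 of the 22 genes every one of the 8 arrays was above all 24. R6/2 HSP990 replicate 5 had the largest difference between 3′ and 5′ control probe sets, 4.56 on the log2 scale against at most 2.45 elsewhere. Results are given with and without these arrays where they rest on them.

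**Figure D1:**
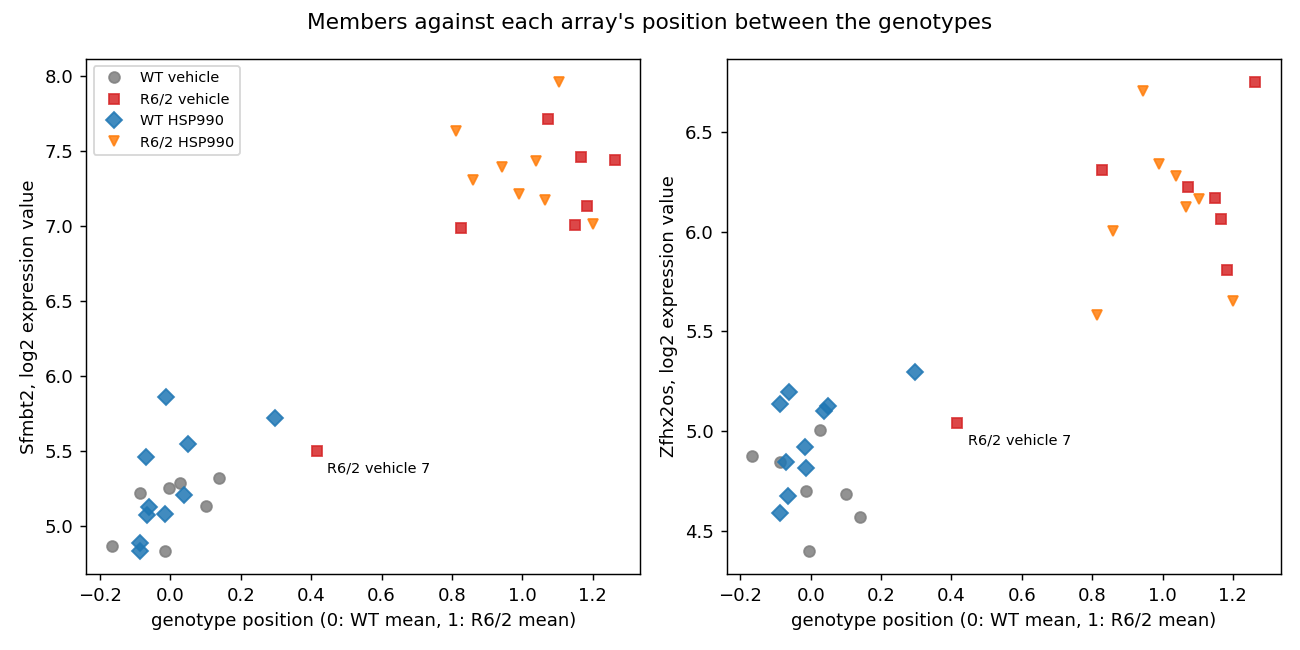
Log2 expression value of Sfmbt2 (left) and Zfhx2os (right) in each of the 32 arrays against the array's genotype position, where 0 is the WT mean and 1 the R6/2 mean over genes called on the other treatment without the 5 members. R6/2 vehicle replicate 7, at 0.415, lies between the genotypes on the horizontal axis and next to the WT arrays for both genes.

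Sfmbt2 was the member with the largest difference between the genotypes. In WT vehicle arrays its lowest, median and highest log2 values were 4.83, 5.22 and 5.32, and in R6/2 vehicle arrays they were 5.50, 7.13 and 7.71. The lowest R6/2 value is that of replicate 7, and the next one is 6.98. In WT HSP990 arrays Sfmbt2 lay at 4.83, 5.17 and 5.86 (lowest, median, highest), and in R6/2 HSP990 arrays at 7.02, 7.35 and 7.96. All 8 R6/2 HSP990 arrays were above all 10 WT HSP990 arrays, and the groups did not overlap on vehicle either. On vehicle, the comparison that chose the gene, R6/2 exceeded WT by 1.90 ± 0.22 (SE) in log2, a 3.74-fold difference. On HSP990 the difference was 2.11 ± 0.19 (SE, n = 8 and 10), 4.33-fold with a 95% interval of 3.30 to 5.68, and limma's adjusted p was 3.89e-10.

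Both probe sets of Sfmbt2 gave this pattern. Probe set 1443176_at differed by 1.34 ± 0.13 (SE) in log2 on HSP990, with an adjusted p of 2.94e-09 in limma over all 45037 probe sets, of which 15.8% were called higher in R6/2. After removal of group means, the values of its probe sets had a correlation of 0.84 over the 32 arrays and 0.73 without R6/2 vehicle replicate 7, with the RNA of each array shared by both. In WT vehicle striatum Sfmbt2 was dim, with 40.7% of all probe sets below 1434353_at.

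Insyn2b separated the genotypes on HSP990 without overlap. Its lowest, median and highest log2 values were 3.80, 4.32 and 4.50 in WT HSP990 arrays and 5.38, 5.96 and 6.21 in R6/2 HSP990 arrays. The difference was 1.66 ± 0.19 (SE, n = 8 and 10), 3.17-fold with a 95% interval of 2.42 to 4.16 and an adjusted p of 3.77e-08 in limma. On vehicle, where it was chosen, Insyn2b lay at 3.65, 4.58 and 4.90 in WT and at 4.67, 6.09 and 6.58 in R6/2, a difference of 1.43 ± 0.22 (SE). There, 6 of 7 R6/2 arrays were above the highest WT array, and the exception was R6/2 vehicle replicate 7. Replicate 4, at 5.11, was the next lowest.

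Zfhx2os did not overlap between the genotypes on either treatment. It lay at 4.59, 5.01 and 5.29 in WT HSP990 arrays and at 5.58, 6.14 and 6.70 in R6/2 HSP990 arrays (lowest, median, highest). The log2 difference was 1.14 ± 0.16 (SE, n = 8 and 10), 2.20-fold with a 95% interval of 1.76 to 2.74, and limma's adjusted p was 7.78e-07. On vehicle the values were 4.40, 4.70 and 5.00 in WT and 5.04, 6.17 and 6.75 in R6/2, and the difference was 1.33 ± 0.18 (SE). The lowest R6/2 vehicle array was again replicate 7, at 5.04, and the next was at 5.81. Zfhx2 itself, measured by its own probe set, fell in R6/2 on HSP990 by 0.36 ± 0.12 (SE) in log2 (adjusted p = 0.0167 in limma), from 6.04 ± 0.15 (SD, n = 10) in WT to 5.68 ± 0.29 (SD, n = 8), so this pair differed in opposite directions. The strand read by probe set 1446215_at was not checked here beyond the platform's assignment.

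Baiap3 was the brightest of the 5 genes relative to the array (58.6% of probe sets lay below it in WT vehicle arrays), and it had a wide spread in every group. Its lowest, median and highest values were 5.41, 5.93 and 7.68 in WT HSP990 arrays and 6.33, 7.71 and 8.12 in R6/2 HSP990 arrays. These groups overlapped. WT replicate 6, at 7.68, exceeded 3 of the 8 R6/2 arrays, and WT replicates 7 and 2, at 6.52 and 6.36, exceeded the lowest R6/2 array, replicate 6 at 6.33. In all, 5 of 8 R6/2 arrays were above the highest WT array. The difference of the means was still called, at 1.36 ± 0.31 (SE, n = 8 and 10), 2.57-fold with a 95% interval of 1.67 to 3.95. Limma's adjusted p was 0.000661. On vehicle Baiap3 lay at 5.50, 6.67 and 7.20 in WT and at 6.41, 7.49 and 8.57 in R6/2, with a difference of 1.14 ± 0.34 (SE) and 4 of 7 R6/2 arrays above the highest WT array.

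**Figure D2:**
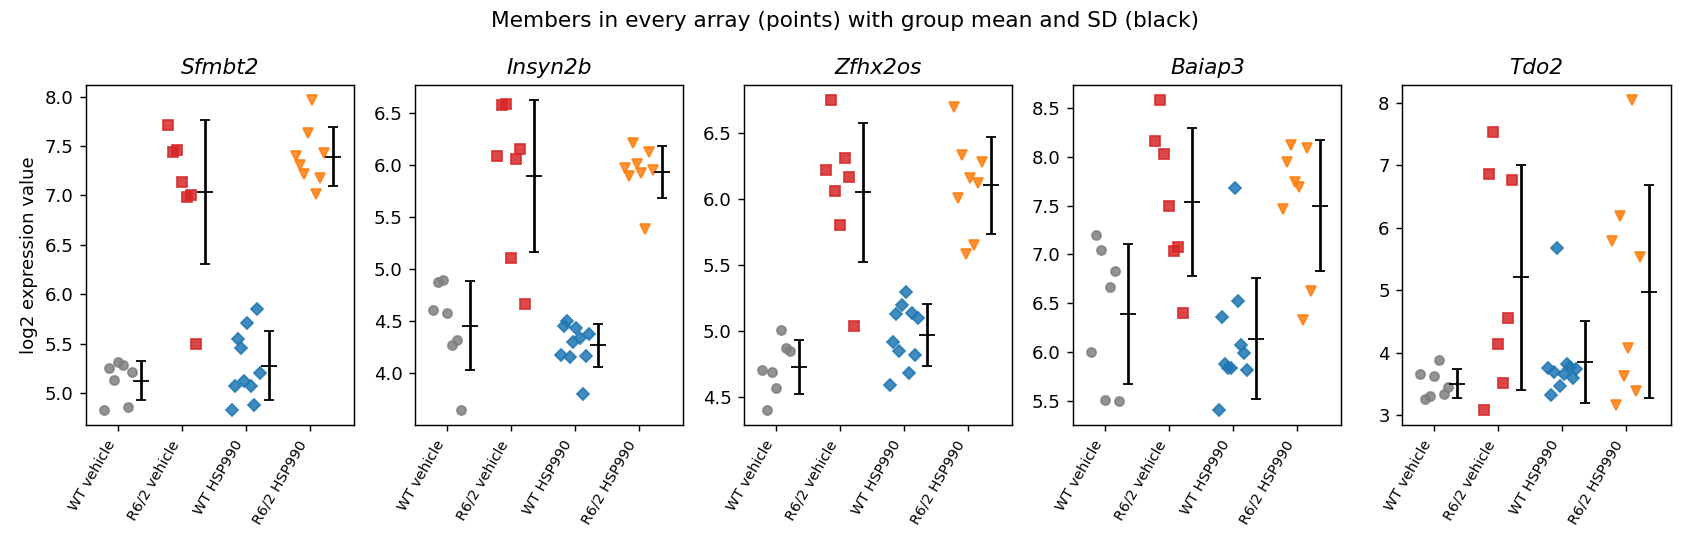
Log2 expression value of each of the 5 genes in each array (points), by genotype and treatment, with the group mean and SD in black (n = 7, 7, 10 and 8 arrays from left to right). The R6/2 points of Sfmbt2, Insyn2b and Zfhx2os on HSP990 lie above all WT points on HSP990, while those of Tdo2 run from 3.16, among the WT values, to 8.04.

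Tdo2 went against its label as a gene raised in R6/2: it was high in some R6/2 arrays and near the WT values in others. In R6/2 vehicle arrays its values were 3.09, 3.52, 4.14, 4.57, 6.77, 6.86 and 7.54, and in WT vehicle arrays they ran from 3.26 to 3.89 with a median of 3.46. In R6/2 HSP990 arrays the values were 3.16, 3.39, 3.62, 4.07, 5.54, 5.80, 6.19 and 8.04, and in WT HSP990 arrays they ran from 3.33 to 5.69 with a median of 3.72. The R6/2 groups spanned the WT range and went far beyond it. The log2 difference on HSP990 was 1.12 ± 0.56 (SE, n = 8 and 10), with a 95% interval of -0.01 to 2.26 and an adjusted p of 0.127 in limma, and only 3 of 8 R6/2 arrays were above the highest WT array. On vehicle the difference that chose it was 1.70 ± 0.63 (SE).

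The high Tdo2 values coincided with liver genes or, in R6/2 vehicle replicate 7, with dentate gyrus genes. In the 7 R6/2 arrays with a hepatocyte mean above 6, Tdo2 lay between 4.57 and 8.04, and the only WT array above 6, HSP990 replicate 4, held the highest WT value of Tdo2, 5.69. In the R6/2 HSP990 arrays with a hepatocyte mean below 6, Tdo2 lay between 3.16 and 4.07, and in the corresponding WT HSP990 arrays between 3.33 and 3.82. Over the 32 arrays, after removal of group means, Tdo2 and the mean of the hepatocyte genes had a correlation of 0.85, and 0.94 without R6/2 vehicle replicate 7, with the RNA of each array common to both. In that replicate Tdo2 was at 6.77 while the hepatocyte mean was 4.59. The hepatocyte list, chosen after the data were seen, had 0 of 22 genes called on vehicle and 1 of 22 on HSP990 in limma, with median log2 differences of 1.01 and 1.14.

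Without the 8 arrays high in hepatocyte genes, the Tdo2 difference between the genotypes on HSP990 was -0.09 ± 0.37 (SE, n = 4 and 9, adjusted p = 0.911 in limma). Without R6/2 vehicle replicate 7 as well, Tdo2 on vehicle was at 3.58 ± 0.53 (SD, n = 3) in R6/2 and 3.51 ± 0.23 (SD, n = 7) in WT, a difference of 0.07 ± 0.18 (SE), and on HSP990 at 3.56 ± 0.39 (SD, n = 4) and 3.65 ± 0.16 (SD, n = 9). In the same arrays the other members kept their differences on HSP990, at 2.26 for Sfmbt2, 1.71 for Insyn2b, 0.98 for Zfhx2os and 1.69 for Baiap3. All 4 were called there, with adjusted p between 5.96e-09 and 0.00101 in limma over both settings that left out these arrays. Of all genes, 14.8% were called higher without the 8 arrays and 15.5% without R6/2 vehicle replicate 7 as well. On vehicle without the 9 arrays the log2 differences were 2.15 for Sfmbt2, 1.29 for Insyn2b, 1.39 for Zfhx2os and 1.17 for Baiap3, and without only the 8 they were 1.70, 1.02, 1.12 and 0.88 in the same order. Baiap3 was called on vehicle in neither setting (adjusted p = 0.0539 and 0.15 in limma), which is a description, since the vehicle comparison chose the genes.

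**Figure D3:**
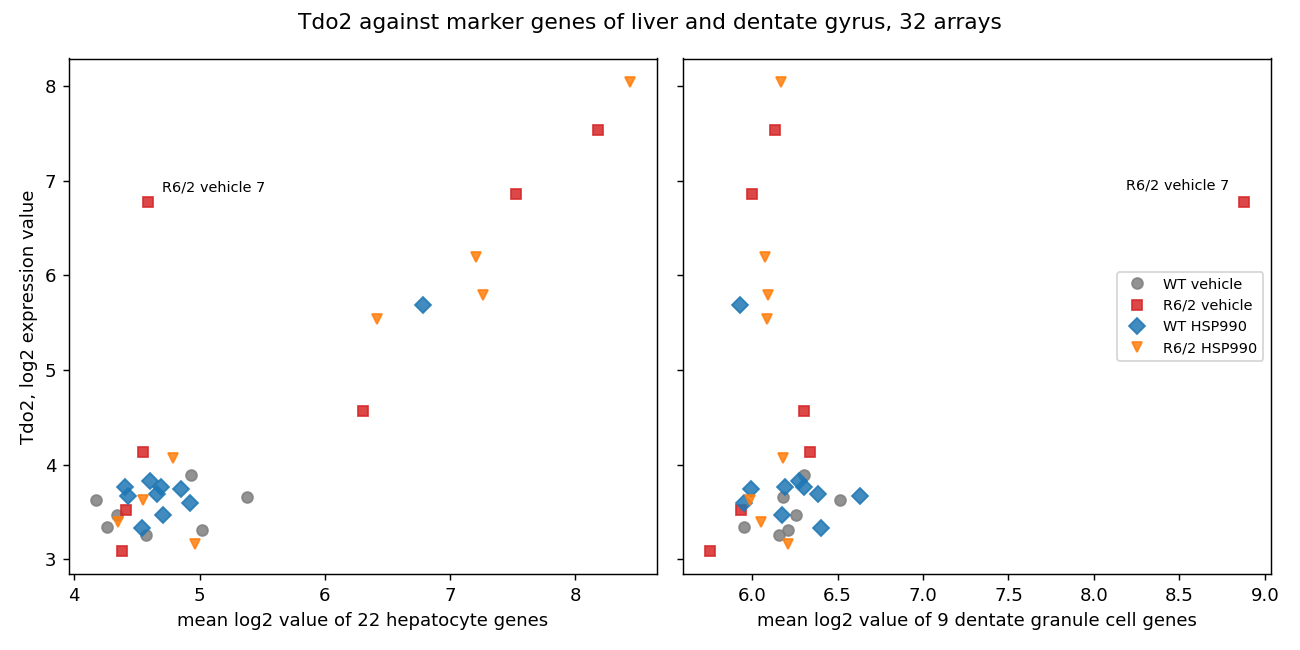
Log2 expression value of Tdo2 in each of the 32 arrays against the mean log2 value of 22 hepatocyte genes (left) and of 9 dentate granule cell genes (right). High Tdo2 values stand at hepatocyte means above 6, except R6/2 vehicle replicate 7, which stands at a dentate mean of 8.88.

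The 3 probe sets of Tdo2 varied together across arrays, with within-group correlations of 0.85 for 1419093_at with 1449337_at and 0.81 with 1455770_at over 32 arrays. On HSP990, 1449337_at differed between the genotypes by 0.40 ± 0.19 (SE) in log2 and 1455770_at by 0.33 ± 0.18, with adjusted p of 0.112 and 0.186 in limma over all probe sets. On vehicle, the comparison that chose the gene, they differed by 0.68 ± 0.21 and 0.31 ± 0.20 (SE), beside 1.70 for 1419093_at. All 3 probe sets were dim in WT vehicle striatum, with between 7.93% and 18.4% of the array's probe sets below them. There 1449337_at, at 3.75, was brighter than 1419093_at, at 3.51, which represents the gene by its mean over all arrays.

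**Figure D4:**
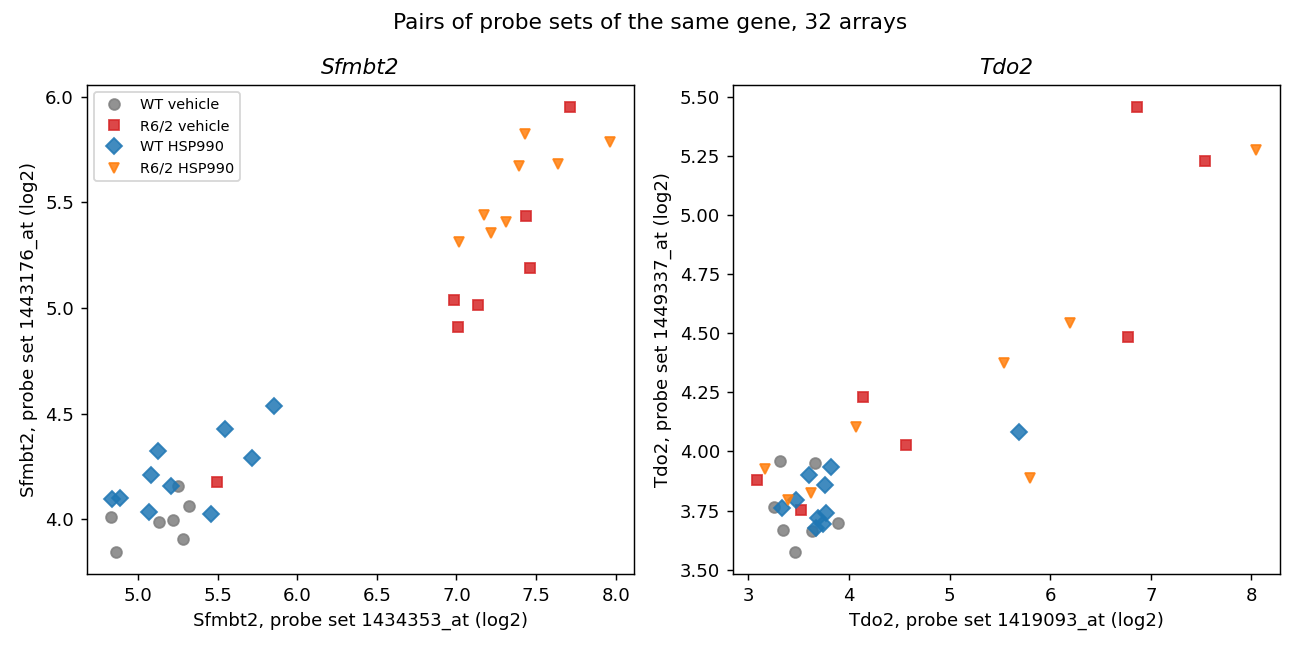
Log2 value of probe set 1443176_at against 1434353_at of Sfmbt2 (left) and of 1449337_at against 1419093_at of Tdo2 (right) in the 32 arrays. The Sfmbt2 points form a WT and an R6/2 cloud, with R6/2 vehicle replicate 7 in the WT cloud, while the Tdo2 points of both genotypes start from a common low cloud and the high ones are mostly R6/2.

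On HSP990, then, 4 of the 5 genes were called higher in R6/2, where 22.6% of all 18193 genes were called higher, and 3 of 5 did not overlap between the genotypes, as was so for 6.04% of all genes. Their median log2 difference was 1.36, beside 0.04 over all genes. On vehicle, where they were chosen, all 5 were called higher (11.9% of all genes) and 2 of 5 did not overlap (1.53% of all genes), with a median of 1.43 beside -0.01, and nothing is read from these counts. Since that comparison chose Tdo2, its adjusted p there is a description and no test. It lay at the threshold, at 0.0498 in limma. It was under 0.05 in only 3 of 8 other ways of processing and in 8 of 32 fits without 1 array. Medium spiny neuron markers moved the other way. Of 13 measured, 12 fell in R6/2 on vehicle and 12 on HSP990, and the mean over the list ran from 11.5 to 12.0 in WT HSP990 arrays and from 9.54 to 10.5 in R6/2 HSP990 arrays. Fewer cells of a type and less RNA per cell cannot be told apart in such bulk tissue, and the part of this loss in the members' values was not tested. Within groups, the correlation of the medium spiny neuron mean with the 5 members ran from -0.25 for Sfmbt2 to 0.11 for Insyn2b over 32 arrays. Without R6/2 vehicle replicate 7 it was -0.11 for Sfmbt2, 0.31 for Insyn2b and 0.19 for Zfhx2os.

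No member was called as changed by HSP990. In WT mice, 0 of 5 were called (5.8% of all genes were), and the log2 differences of HSP990 from vehicle ran from -0.25 for Baiap3 to 0.35 for Tdo2. For Sfmbt2 the difference was 0.15 with a 95% interval of -0.26 to 0.56, for Insyn2b -0.19 (-0.59 to 0.22) and for Zfhx2os 0.24 (-0.09 to 0.57). In R6/2 mice, 0 of 5 were called either (3.09% of all genes), with differences from -0.23 for Tdo2 to 0.36 for Sfmbt2 (95% interval -0.07 to 0.78). Limma's adjusted p ran from 0.464 to 0.82 in WT and from 0.432 to 0.976 in R6/2, and 0 members had an unadjusted p under 0.05 in either by the probe set that represents the gene. The dimmer probe set of Sfmbt2, 1443176_at, differed more between HSP990 and vehicle in R6/2 mice, by 0.46 ± 0.14 (SE) in log2 with an adjusted p of 0.0839 in limma over all probe sets. The genotypes' responses to HSP990 differed for 0 of 5 genes (0.247% of all genes), with 0 at an unadjusted p under 0.05. Insyn2b had the largest positive difference in response, 0.23 with a 95% interval of -0.36 to 0.82, and Tdo2 the lowest, -0.58 with an interval of -2.29 to 1.13. These 3 comparisons share the vehicle arrays that chose the genes.

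HSP990 raised heat shock genes in the same arrays. Hspa1a, which encodes an inducible HSP70 chaperone, rose from 5.88 ± 0.46 (SD, n = 7) to 11.2 ± 0.20 (SD, n = 10) in WT mice and from 6.51 ± 0.61 (SD, n = 7) to 10.2 ± 0.36 (SD, n = 8) in R6/2 mice. Of 10 heat shock genes, 10 rose in WT and 9 in R6/2. In the order of group means, the WT groups were lowest and the R6/2 groups highest for each of the 5 genes, and no difference between groups of the same genotype was called. For Tdo2 the difference between the WT HSP990 and R6/2 HSP990 means, next to each other in that order, was not called either.

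**Figure D5:**
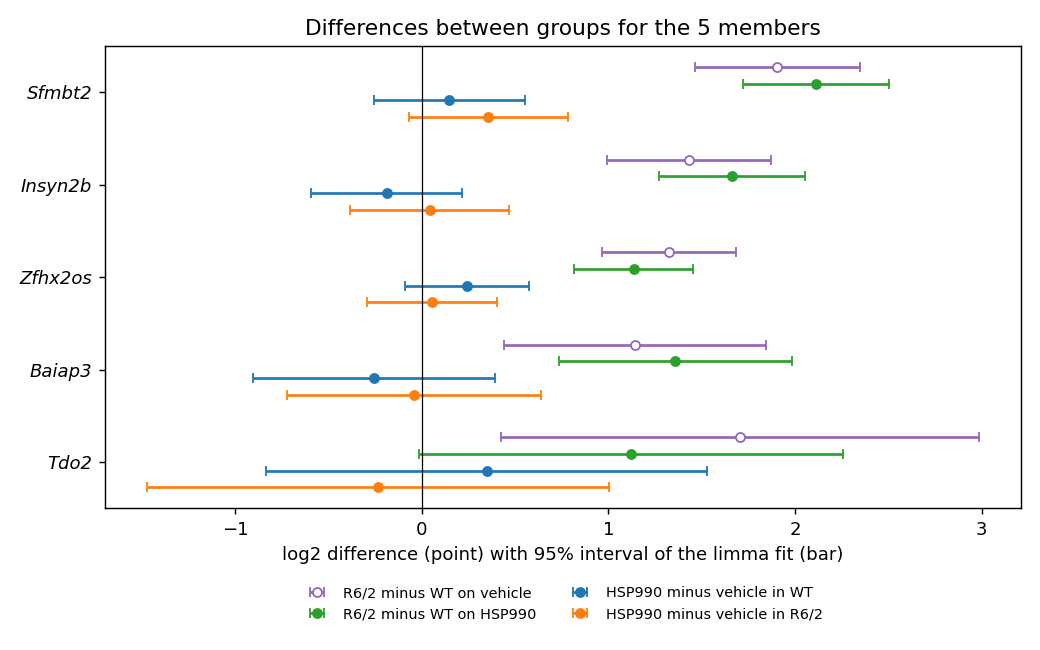
Log2 differences (points) with 95% intervals of the limma fit (bars) for the 5 genes in 4 comparisons, with the vehicle comparison that chose the genes as open points. The intervals for R6/2 minus WT on HSP990 exclude 0 except for Tdo2, and those for HSP990 minus vehicle include 0 for all 5 genes in both genotypes.

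Genes with the most similar profile to each member were ranked by the root mean square difference over the 32 arrays after each gene was centred. The nearest to Sfmbt2 were Cks2 (0.42 log2 units), Capn10 (0.48) and Cks1b (0.52), where Cks1b and Cks2 encode subunits of cyclin-dependent kinases and Capn10 a calpain protease. Capn10 was also the nearest to Insyn2b (0.37) and Zfhx2os (0.28). Scn9a, which encodes a voltage-gated sodium channel, was the nearest to Baiap3 (0.50) and was also close to Insyn2b (0.38) and Zfhx2os (0.31). The others were Tnnt2, a cardiac troponin T gene, for Insyn2b (0.37) and Baiap3 (0.55), Trmt2b, a tRNA methyltransferase gene, for Zfhx2os (0.28), and Gprin2 for Baiap3 (0.54). For Tdo2 the nearest were Rdh7 (0.62), Apoh (0.63) and Cps1 (0.64). Apoh encodes a plasma apolipoprotein and Cps1 the first enzyme of the urea cycle. Both stand in the hepatocyte list, which was chosen after the data were seen, so their place in it is no separate support. Among HSP990 arrays, Capn10 was higher in R6/2 than in WT by 1.29 ± 0.11 (SE) in log2 with an adjusted p of 1.27e-10 in limma. Cks2 was higher by 2.08 ± 0.15 with 5.22e-12. Likeness over all arrays includes the genotype difference itself.

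Within groups, the correlations between the members other than Tdo2 were positive, and each was lower without R6/2 vehicle replicate 7. The correlation of deviations from group means over 32 arrays was 0.55 for Sfmbt2 with Insyn2b and 0.28 without that array. In the same order it was 0.51 and 0.21 for Sfmbt2 with Zfhx2os, and 0.46 and 0.35 for Sfmbt2 with Baiap3. It was 0.49 and 0.27 for Insyn2b with Zfhx2os, 0.39 and 0.27 for Zfhx2os with Baiap3, and 0.58 and 0.51 for Insyn2b with Baiap3. The level for pairs of other genes was not computed. Tdo2 had correlations of -0.24 to -0.07 with the other 4, and without that array they ran from -0.18 with Baiap3 to 0.07 with Zfhx2os. All values of an array share its RNA and its hybridisation.

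The other genes of each member's pathway were counted over lists without the member. Here and in the paragraphs on pathways and neighbours that follow, rose and fell compare R6/2 with WT among arrays of the same treatment. Over all genes 22.6% were called higher and 11% lower on HSP990, and 11.9% and 9.6% on vehicle. Of 40 measured Polycomb and MBT-domain genes besides Sfmbt2, 13 rose and 4 fell in R6/2 on HSP990 (9 and 4 on vehicle), with a median log2 difference of 0.14. L3mbtl3, an MBT-domain gene, rose by 0.86 ± 0.11 (SE, adjusted p = 1.49e-07 in limma), and Eed and Rbbp4, core and associated subunits of Polycomb repressive complex 2, rose by 0.50 ± 0.07 and 0.36 ± 0.04. Scmh1, a Polycomb repressive complex 1 gene, fell by 0.61 ± 0.07 in log2, and Bcor, Cbx6 and Ring1 also fell. Bmi1, a further subunit gene of that complex, rose on HSP990 by 0.47 ± 0.09 and on vehicle by 0.76 ± 0.10. The close relative Sfmbt1 rose by only 0.21 ± 0.07 (adjusted p = 0.0179 in limma), from 8.19 ± 0.12 (SD, n = 10) in WT to 8.40 ± 0.16 (SD, n = 8).

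Among 26 genes of the inhibitory postsynapse besides Insyn2b, 5 rose and 6 fell on HSP990 (2 and 7 on vehicle), with a median of -0.02. Gabrd, the delta subunit of extrasynaptic GABA-A receptors, fell by 1.53 ± 0.14 (SE) in log2 and Neto2, an auxiliary receptor subunit, by 1.43 ± 0.13 (adjusted p = 3.40e-10 and 2.13e-10 in limma). Gabrg3 fell by 0.43 ± 0.07. The 5 that rose were receptor subunits Glra2 (1.02 ± 0.16), Glra3, Gabrg1 and Gabra5 and the adhesion protein gene Nlgn3. The family member Insyn2a was at 6.92 ± 0.10 (SD, n = 10) in WT HSP990 arrays and 6.88 ± 0.09 (SD, n = 8) in R6/2 HSP990 arrays, a difference of -0.04 ± 0.06 (SE, adjusted p = 0.679 in limma).

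Of 12 genes of the zinc finger homeobox family and the Zfhx2 locus, 4 rose (Zfhx4 by 0.44 ± 0.10 SE, Thtpa by 0.42 ± 0.09, Ngdn by 0.34 ± 0.08, and Dhrs4) and 3 fell (Jph4, Zfhx2 and Ap1g2) on HSP990. On vehicle 1 rose and 3 fell. Jph4, a junctophilin gene of neurons, fell by 0.86 ± 0.09 in log2 (adjusted p = 5.19e-09 in limma). Of 34 MUNC13-family and dense-core vesicle genes besides Baiap3, 5 rose and 8 fell on HSP990 (1 and 5 on vehicle). The synaptic vesicle priming gene Unc13a fell by 0.82 ± 0.11 (SE, adjusted p = 8.29e-07), Unc13c by 0.44 ± 0.16 and Unc13d by 0.22 ± 0.07, while Unc13b rose by 0.41 ± 0.14. Doc2b, a calcium sensor gene, fell by 0.55 ± 0.16. Vgf, a neuropeptide precursor gene, was lower in R6/2 than in WT on HSP990 by 0.38 ± 0.12. Rab3a and Ccdc186 rose by 0.27 ± 0.05 and 0.26 ± 0.06, and Vps51 and Cadps also rose. Against vehicle, HSP990 raised Vgf in R6/2 by 0.49 ± 0.13 (SE, adjusted p = 0.0398 in limma). In WT its difference of 0.32 ± 0.13 from vehicle was not called.

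Of 25 other kynurenine and tryptophan genes, 6 rose and 1 fell on HSP990, while 0 rose and 3 fell on vehicle. Within groups, the mean of this list and Tdo2 had a correlation of 0.56 over 32 arrays and 0.65 without R6/2 vehicle replicate 7, with the RNA of each array shared. The mean of the hepatocyte genes had a higher correlation with Tdo2, 0.85 and 0.94 in the same order. The correlation of the kynurenine and tryptophan list without the arrays high in hepatocyte genes was not computed. The gene that fell was Ido1, whose enzyme catalyses the same first step as tryptophan 2,3-dioxygenase. Ido1 was at 9.33 ± 0.42 (SD, n = 10) in WT HSP990 arrays and 8.04 ± 0.41 (SD, n = 8) in R6/2 HSP990 arrays, and fell by 1.28 ± 0.22 (SE) in log2 with an adjusted p of 1.96e-05 in limma. On vehicle it fell by 1.24 ± 0.25 (adjusted p = 0.00034). Ahr, the aryl hydrocarbon receptor that binds kynurenine, rose by 0.45 ± 0.10 on HSP990, Nmnat1 by 0.41 ± 0.10 and Got2 by 0.20 ± 0.05. Ido2 and Kmo were dim, at 3.94 and 4.14 in R6/2 HSP990 arrays, and differed from WT by -0.10 ± 0.08 and 0.24 ± 0.13 (adjusted p = 0.337 and 0.176 in limma).

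The 4 nearest measured genes on each side of every member, in the order of the RefSeq gene table of GRCm38.p6, made 40 neighbours. On HSP990, 6 of them were called higher and 6 lower in R6/2, and on vehicle 3 and 5, beside 22.6% and 11% of all genes on HSP990 and 11.9% and 9.6% on vehicle. Next to Sfmbt2 on chromosome 2, Kin rose by 0.37 ± 0.07 (SE) and Prkcq by 0.23 ± 0.09. Next to Insyn2b on chromosome 11, Spdl1, a spindle protein gene, rose by 0.85 ± 0.16 and Slit3, an axon guidance gene, fell by 0.95 ± 0.12 in log2. Around Zfhx2os on chromosome 14 the genes called were Zfhx2, Ngdn, Thtpa, Ap1g2 and Jph4, with Ap1g2 lower by -0.23 ± 0.08. None of the 8 neighbours of Baiap3 on chromosome 17 was called in limma. Around Tdo2 on chromosome 3, Pdgfc rose by 0.38 ± 0.11, and Gucy1b1 and Gucy1a1, both subunits of soluble guanylyl cyclase, fell by 0.30 ± 0.11 and 0.39 ± 0.14. Each of the called neighbours differed by less than its member in size, and the difference of Tdo2 itself was not called.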

How the data were processed

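Total RNA from striatum was labelled by transcription from the 3′ end of mRNA and hybridised to Affymetrix arrays, per the labels' protocols. The deposited values are log2 expression values, 45101 probe sets on each of 32 arrays. The authors had brought the arrays to similar medians, and how they summarised and normalized the probes was not given in any source used here. The labels name software for quality control alone. Of the probe sets, 64 were controls, 34945 had 1 gene in the platform's probe list, 932 had several and 9160 had none, and 204 of those with 1 gene, whose identifier the RefSeq list of genes lacks, stayed under the symbol from the platform. Of the probe sets with 1 gene, that with the highest mean over all arrays stood for the gene.

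Means of the 4 groups were fitted with limma 3.58.1 in R 4.3.3 (with data.table, version 1.17.8), with Benjamini-Hochberg adjustment over all 18193 genes of each of 5 comparisons and a call at an adjusted p under 0.05. No low values were removed. Fold changes are antilogs of log2 differences. Tested on simulated data with 18193 genes for the genotypes on HSP990, the fit recovered 82% of changes of 0.5 in log2 and at least 98% of changes of 1 or more, with 5 false calls. The simulated noise was normal, independent between arrays, and for each gene of the same spread in every group. It held no deviations shared between genes and no unequal spreads, so these shares describe that setting and not the real arrays.

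The members, and the 18 pathway and marker lists, were chosen with earlier results of these data known, and the hepatocyte and dentate lists after these values were seen. Named genes were the members, their 3 nearest profiles, up to 4 genes per pathway list with the smallest p on each treatment, relatives of the members, called neighbours, heat shock genes and 4 medium spiny neuron markers. Other genes of counts of 5 or fewer were named once their values were known. The alternatives tried were quantile normalization, a filter on low values, a fit of only the groups compared, the mean of probe sets, adjustment over all probe sets, a trended robust variance, a replicate block, array weights, a 3′ bias covariate and each array left out. Leaving out arrays high in hepatocyte genes (mean above 6) or dentate genes (mean above 8) was added after the data were seen.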

Additional observations from a re-analysis of the deposited data

Results flagged for a closer look

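Of the 20 groups of values (5 genes in 4 groups of arrays), 5 held an array far from its nearest neighbour by Dixon's criterion, where chance gives about 1 in 20 groups. Sfmbt2 in R6/2 vehicle replicate 7 was at 5.50, with the nearest R6/2 vehicle array at 6.98, and that array also stood apart in its genotype position and dentate genes. Tdo2 in WT HSP990 replicate 4 was at 5.69, with the nearest WT HSP990 array at 3.82, and it was the only WT array with a hepatocyte mean above 6. Baiap3 in WT HSP990 replicate 6 was at 7.68, with the nearest array of its group at 6.52. That array also had the highest genotype position of all WT arrays, 0.297, where WT vehicle arrays reached at most 0.139. Its dentate mean, 6.63, was the highest apart from that of R6/2 vehicle replicate 7. Insyn2b in WT HSP990 replicate 8 was at 3.80 with the nearest at 4.16, and Insyn2b in R6/2 HSP990 replicate 6 was at 5.38 with the nearest at 5.90.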

How the results depend on the processing

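The count of members higher in R6/2 on HSP990 was 4 or 5 over 9 planned settings, where 19.8% to 32.9% of the genes tested were called higher. The highest share was that of the filter on low values, which tested 4 members. The count was 4 in each of 32 fits that left out 1 array (21.1% to 23.2% of all genes). It was 4 in both settings that left out arrays high in hepatocyte or dentate genes (14.8% and 15.5% of all genes). The counts for HSP990 in either genotype and for the interaction were 0 in every setting run, and the interaction could not be fitted with only the groups compared. Tdo2 on HSP990 was called with array weights (1.33, adjusted p = 0.0367 in limma) and with the 3′ bias covariate (1.58, adjusted p = 0.0385), and without 1 array it ran from 0.69 to 1.38 with adjusted p from 0.0575 to 0.348. It turned to -0.088 without the arrays high in hepatocyte genes, with or without R6/2 vehicle replicate 7. The filter on low values kept 11753 genes and 4 of 5 members. It required values above the median of all probe sets in at least 7 arrays, and Tdo2 had 6. Insyn2b and Zfhx2os had 12 each, all from R6/2, and Sfmbt2 had 15, all from R6/2 except WT HSP990 replicate 9. Sfmbt2, Insyn2b and Zfhx2os thus passed through the arrays where they are high, so their calls in this setting are no separate support.

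Differences that were not called and turned in sign were those of HSP990 in R6/2 for Insyn2b (-0.12 with array weights, -0.0037 with the 3′ bias covariate), Zfhx2os (-0.15 without hepatocyte or dentate arrays), Baiap3 (0.59 without hepatocyte arrays, 0.30 without dentate arrays too) and Tdo2 (0.16 with the 3′ bias covariate), and the interaction of Tdo2 (0.027 with the 3′ bias covariate). Without 1 array the HSP990 difference in R6/2 ran from -0.16 to 0.16 for Insyn2b, -0.11 to 0.17 for Zfhx2os, -0.23 to 0.13 for Baiap3 and -0.67 to 0.15 for Tdo2, and the interaction of Sfmbt2 from -0.047 to 0.32. The cause was not tested.

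With the replicate number as a block, Baiap3 in R6/2 on HSP990 against vehicle was 0.032 (sign turned, not called), 4 members remained called on HSP990, and no call of a member changed, apart from that of Tdo2 on vehicle (adjusted p = 0.0833 in limma). The labels do not say whether equal numbers pair the arrays. Of 43 same-numbered pairs, 19 had a correlation of deviations over 0.1, with a range of -0.29 to 0.38. Their mean was highest for WT vehicle with R6/2 vehicle, 0.091 beside -0.015 for pairs with unlike numbers. It was lowest for R6/2 vehicle with R6/2 HSP990, -0.0013 beside 0.0023. Pairing was not tested further. Tdo2 was the dimmest member, with between 7.93% and 18.4% of all probe sets below its probe sets in WT vehicle arrays. Whether signal over background limits its values was not tested.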
